A study of Mus musculus with 30 samples.

Results

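Mitochondria make most of a cell's ATP by oxidative phosphorylation, and the 90 genes described here are those of its nuclear-encoded machinery. They are all genes with 1 symbol of their own in the array annotation whose symbol starts with Nduf, Uqcr, Cox4 to Cox8 or Atp5, or is Sdha, Sdhb, Sdhc or Sdhd, taken from 18194 genes in all. Each gene was read from its probe set of highest mean over the 30 arrays. By role they fell into 6 core and 28 accessory subunits and 8 assembly factors of complex I, 4 subunits of complex II, 8 of complex III, 10 of complex IV and 17 of complex V, 8 tissue-restricted isoforms, and Cox7a2l. Of the 90, 88 passed the filter on low signals; Ndufb4 and the isoform gene Cox7b2 did not and were not tested. Their levels were 3.92 to 4.39 (Cox7b2) and 4.31 to 5.36 (Ndufb4) on the 30 arrays, and the filter asked for a mean above 5.33.

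Microarrays measured gene expression in small intestine from mice aged 2 months. Rb1 alone (Rb KO) or Rb1 together with Myc (Rb/Myc DKO, here DKO) had been deleted 5 days earlier with Ah-cre, an inducible Cre active in the intestine. The labels name this Cre for the deletion of both genes and do not say whether control mice carried it. Villi and crypts were profiled separately in control, Rb KO and DKO mice with 5 arrays in each of the 6 groups, so the design asks what loss of Rb1 does in each tissue and what loss of Myc adds to it. Whether each replicate came from an animal of its own is not stated in the labels. The p-values measure only the spread between these samples, which may be technical in part. Sex, read from the level of Xist, was female for control 1 and 4, Rb KO 3 and DKO 4 and 5 in both tissues. The 5 arrays of a group thus did not all come from 1 animal. Both alleles are removed by a Cre, and cells in which it did not act, and cells of other lineages, can remain in the tissue.

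In the respiratory chain, complexes I and II pass electrons from NADH and succinate to ubiquinone, complex III passes them on to cytochrome c, and complex IV hands them to oxygen. Complexes I, III and IV pump protons across the inner membrane, and complex V, the ATP synthase, uses the returning protons to make ATP. In the intestine, stem cells and the absorptive cells of the villus rely on this machinery, and Myc and E2F factors are known in other cells to affect genes of mitochondrial growth.

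All values are log2 levels, differences are log2 differences ± SE from limma fitted over the 3 genotypes of a tissue, and a gene was called when its Benjamini-Hochberg adjusted p over 14548 genes was under 0.05. The villus and crypt arrays had separate medians, 6.28 to 6.34 and 6.67 to 6.73, so levels were not compared between tissues, and signals of different probe sets were not compared with each other. Of the targeted genes, Rb1 was lower in Rb KO than in control, with a difference of −1.46 in villi (limma adjusted p = 7.0e-06) and −1.68 in crypts (adjusted p = 2.7e-05). In crypts Myc was lower in DKO than in Rb KO (−1.60, adjusted p = 1.9e-05). In villi the Myc difference between DKO and Rb KO was −0.52 and not called (adjusted p = 0.147), so in villi the Myc deletion rests on the label. Enterocyte markers had mean levels of 14.26 to 14.41 on the villus arrays and 12.44 to 13.78 on the crypt arrays, and crypt markers 7.99 to 10.30 and 12.10 to 12.78.

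In Rb KO villi most oxidative phosphorylation genes lay close to control, read from the probe set of highest mean. Of the 88 tested genes 6 were higher and 10 lower, 18.2% in all, while 30.5% of all genes tested passed the same threshold (14.7% higher, 15.8% lower). In 9 members (10.2%) all arrays of one genotype lay above all of the other, against 18.7% of all genes. The median difference was −0.03 for these genes and −0.02 for all genes. Among the 72 tested subunits of complexes I to V, 4 rose and 8 fell, and the 95% interval of 69 (95.8%) lay within 0.5 of zero, against 69.2% of all genes. The median SE was 0.07 for the subunits and 0.09 for all genes. Without control 3, control 5 or Rb KO 1 the count of called members was 10. In tissue RNA, a lower level through fewer cells of a type cannot be told apart from less RNA per cell.

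**Figure D1:**
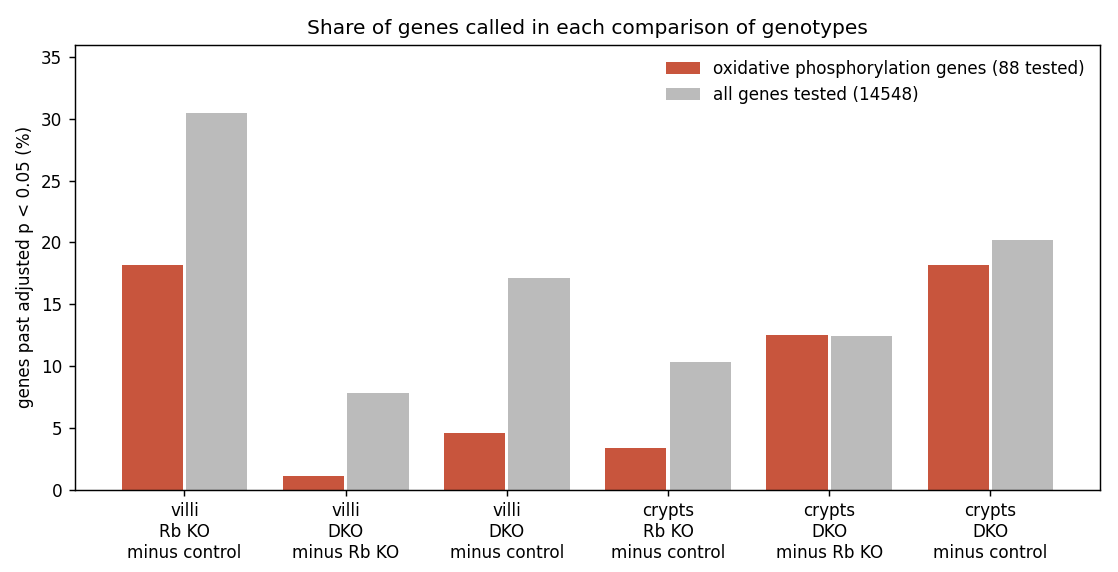
Share of genes past an adjusted p of 0.05 (percent, bars from 0) in each of the 6 comparisons of genotypes, for the 88 tested oxidative phosphorylation genes and for all 14548 genes. The red bar is below the grey one in 5 comparisons and equal to it within 0.1 percentage points in DKO minus Rb KO crypts (12.5 and 12.4).

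Other properties of the samples moved with Rb loss in villi. The mean of 9 cell division genes was 2.67 above control in Rb KO villi, with arrays from 2.40 to 2.94 above it. The 9 T cell and intraepithelial lymphocyte markers were 0.60 lower on average, with 8 of 9 called lower and array means of 9.15 to 9.72 against 9.74 to 10.33 in control. Crypt markers had 0 of 9 called, but 7 of 9 differences were positive, with a median of 0.55. Their mean on single arrays, relative to control, ran from −0.94 to 1.31 in control and from −0.12 to 1.17 in Rb KO villi. Enterocyte markers had 1 of 8 called, Vil1 (−0.16). The Gapdh control probe sets, which compare the 3′ and 5′ ends of one transcript, differed by −0.211 to −0.112 in control and by −0.0903 to 0.0115 in Rb KO villi, without overlap. With that difference as a covariate 8 members were called (9.09%, against 22.8% of all genes), 4 higher and 4 lower, in place of 16. After adjusting for the score of crypt markers instead, 14 members were called, 5 higher and 9 lower (15.9%, against 29.5% of all genes). The part of each of these properties in the differences below was not tested beyond such adjustments.

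In complex I, whose accessory subunits surround the catalytic core, Ndufa8 had the smallest p. It encodes a subunit that faces the intermembrane space. Its levels were 11.83, 11.72, 11.87, 11.95 and 11.82 in control villi and 12.46, 12.15, 12.17, 12.49 and 12.47 in Rb KO villi. Every Rb KO array lay above every control array, and the difference was 0.51 ± 0.08 (limma adjusted p = 1.6e-04). Ndufa1, a small membrane subunit needed for assembly, went the other way. It stood at 13.51, 13.74, 13.73, 13.47 and 13.62 in control and at 13.34, 13.33, 13.32, 13.24 and 13.27 in Rb KO villi. These groups did not overlap either, and Ndufa1 fell by 0.32 (adjusted p = 8.6e-04). Of the 27 tested accessory subunits 2 rose and 1 fell. The second that rose was Ndufb11, of the membrane arm, by 0.25 ± 0.08 (adjusted p = 0.0318), while its other probe sets gave 0.07 and 0.17. Among the 6 core subunits, which carry the flavin and the iron-sulfur clusters, 5 had negative differences, from −0.17 to −0.06, and only Ndufs7 was called (−0.17, adjusted p = 0.0343). That call was lost in 7 of the 15 fits that left out 1 array of the tissue. Among other settings, it was lost with probe sets averaged (adjusted p = 0.174) and with the Gapdh difference as a covariate (adjusted p = 0.329). The other Ndufs7 probe set gave −0.02.

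Complex II, the succinate dehydrogenase that also belongs to the citric acid cycle, had all 4 differences below zero with a median of −0.15, and 2 of the 4 were called. Sdhc, a membrane anchor, read 11.85, 11.98, 11.86, 11.80 and 11.98 in control villi and 11.42, 11.17, 11.35, 11.70 and 11.58 in Rb KO villi. The groups were apart, with a fall of 0.45 (adjusted p = 0.00173), and a second probe set gave −0.30. Sdha, the flavoprotein that oxidises succinate, fell by 0.24 (adjusted p = 0.0115). Rb KO array 5 stood at 12.87 and the other 4 at 12.56 to 12.63, against 12.83 to 12.99 in control, so the groups overlapped through that array. A second Sdha probe set gave −0.24 too, while a dimmer one gave 0.23; with all probe sets averaged the Sdha call was lost (adjusted p = 0.285).

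Complex III had 3 of 8 subunits lower, none higher and a median of −0.10. They were Uqcrfs1, the Rieske iron-sulfur protein (−0.28, adjusted p = 0.0138), Uqcr11, a small subunit (−0.22, adjusted p = 0.0405), and Uqcrc1, a core protein of the complex (−0.16, adjusted p = 0.0429). Uqcrc1 read 13.15, 13.16, 13.27, 13.13 and 13.29 in control and 13.00, 13.08, 12.99, 13.06 and 13.10 in Rb KO villi, without overlap. In complex IV, cytochrome c oxidase, 2 of 10 rose and none fell: Cox7c by 0.37 ± 0.10 (adjusted p = 0.00926) and Cox7a2 by 0.13 ± 0.05 (adjusted p = 0.0495). The Cox7c probe set used had a mean of 8.54 over the 30 arrays. The other Cox7c probe set gave 0.19, and the call was lost when probe sets were averaged (adjusted p = 0.12). It was also lost with the probe set of highest variance (adjusted p = 0.483) and with the Gapdh difference as a covariate (adjusted p = 0.0504). In complex V 1 of 17 was called, Atp5a1, the alpha subunit of the catalytic head, which fell by 0.18 (adjusted p = 0.0371) and lost the call in 8 of the 15 fits that left out 1 array. The other 16 subunits of complex V had differences from −0.12 to 0.04.

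Another probe set of the same gene gave other values for Uqcr10, a small subunit of complex III, and in part for Ndufv1, the core subunit of complex I that binds NADH; both are named here after their values were seen. The Uqcr10 probe set of highest mean differed by 0.06 in Rb KO villi and by −0.01 in Rb KO crypts. A second, dimmer one read 6.85, 9.80, 9.68, 9.74 and 9.72 in control villi, 6.41, 6.33, 6.41, 6.77 and 6.43 in Rb KO villi and 9.54, 9.34, 10.22, 10.32 and 10.42 in DKO villi. Control array 1 lay near the Rb KO arrays and far below the other 4 controls, and all DKO arrays lay above all Rb KO arrays. In crypts it read 7.14, 10.16, 10.20, 9.98 and 10.07 in control. The 5 Rb KO crypt arrays spanned 7.02 to 7.35 and the DKO ones 10.09 to 10.96, again with control array 1 within the Rb KO range. Fitted with this probe set, Uqcr10 was −2.69 ± 0.45 in Rb KO villi (limma adjusted p = 3.6e-04) and −2.30 ± 0.45 in Rb KO crypts (adjusted p = 0.0042). From Rb KO to DKO it was 3.50 higher in villi (adjusted p = 6.4e-04) and 3.39 higher in crypts (adjusted p = 2.0e-04), and DKO against control was not called in either tissue (adjusted p = 0.242 and 0.114). The third probe set gave −1.59 and −1.81 in Rb KO villi and crypts and 2.29 and 2.76 from Rb KO to DKO. A dimmer Ndufv1 probe set was 0.92 ± 0.16 higher in DKO than in Rb KO villi (adjusted p = 0.00349) and 0.95 ± 0.16 higher in crypts (adjusted p = 0.00123), while the one of highest mean gave 0.07 and 0.09. Of the 89 probe sets not used for their gene, these 3 were the ones that differed by over 0.5 between DKO and Rb KO, in villi and in crypts alike. Which probe set follows the transcript was not tested.

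**Figure D2:**
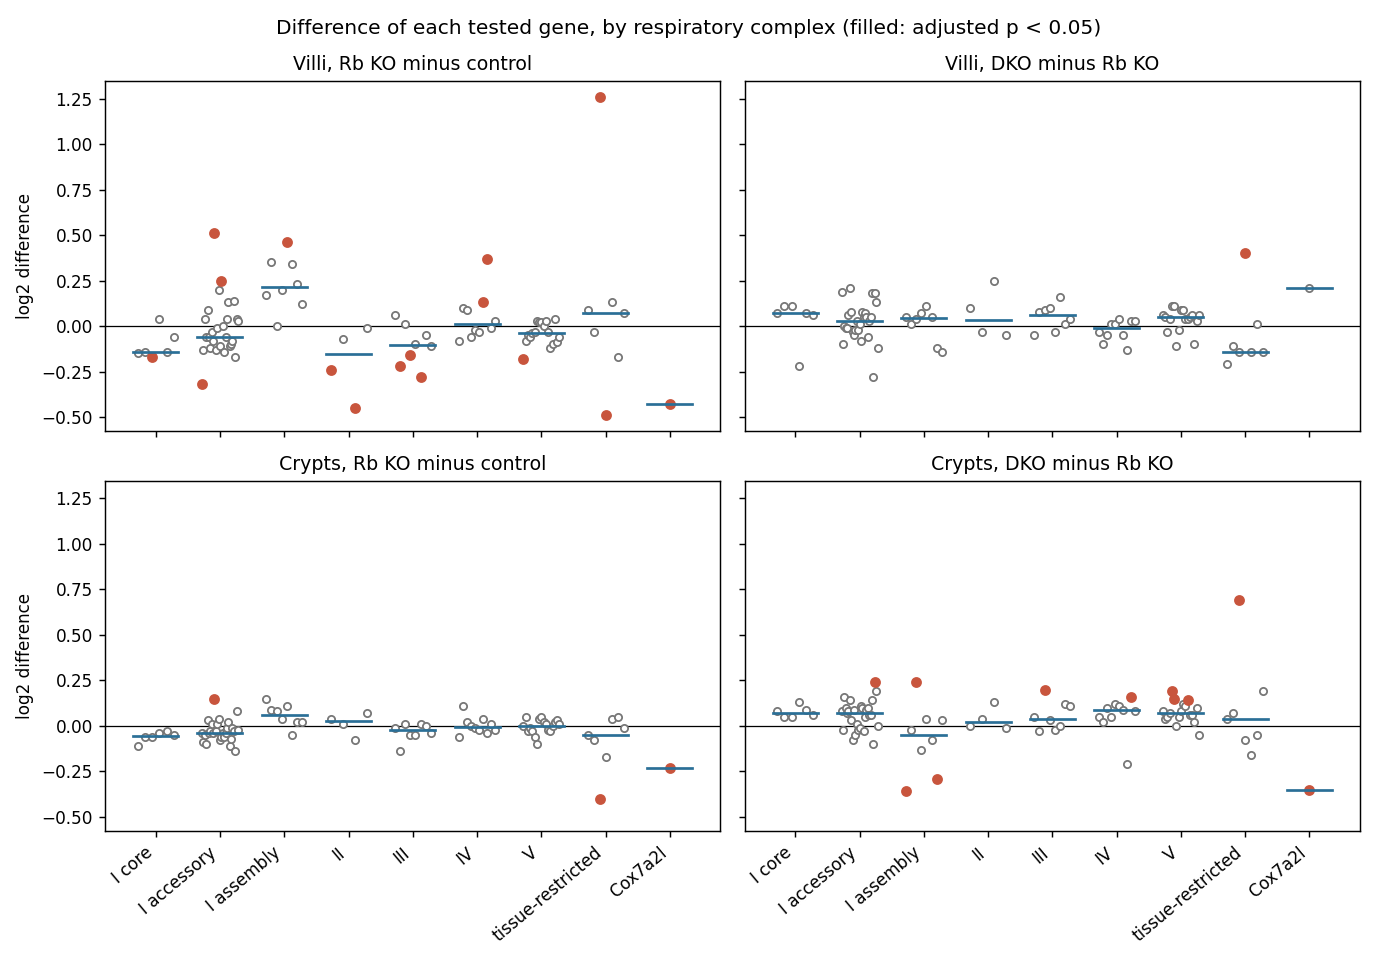
Log2 difference of each of the 88 tested genes (points), by role, in Rb KO minus control and DKO minus Rb KO for villi (top) and crypts (bottom). Filled points passed the threshold and blue lines mark group medians. In Rb KO villi the medians of complexes II (−0.15) and III (−0.10) are below zero and that of the complex I assembly factors is 0.21.

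The complex means on single arrays showed the spread behind these small differences. For complex II the mean of the 4 subunits, relative to control, was −0.21, −0.32, −0.26, −0.13 and −0.04 in Rb KO villi and −0.06 to 0.08 in control. Rb KO array 5 fell within the control range and the other 4 below it. For complex III the Rb KO values were −0.13, −0.16, −0.20, −0.05 and 0.00, again with 1 array inside the control range of −0.03 to 0.03. For complex IV they were 0.07, −0.02, 0.00, 0.10 and 0.12 against −0.06 to 0.04, so the groups overlapped. Over all 72 subunits Rb KO villi ranged from −0.13 to 0.06 with an SD of 0.09 and control villi from −0.03 to 0.02 with an SD of 0.02.

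**Figure D3:**
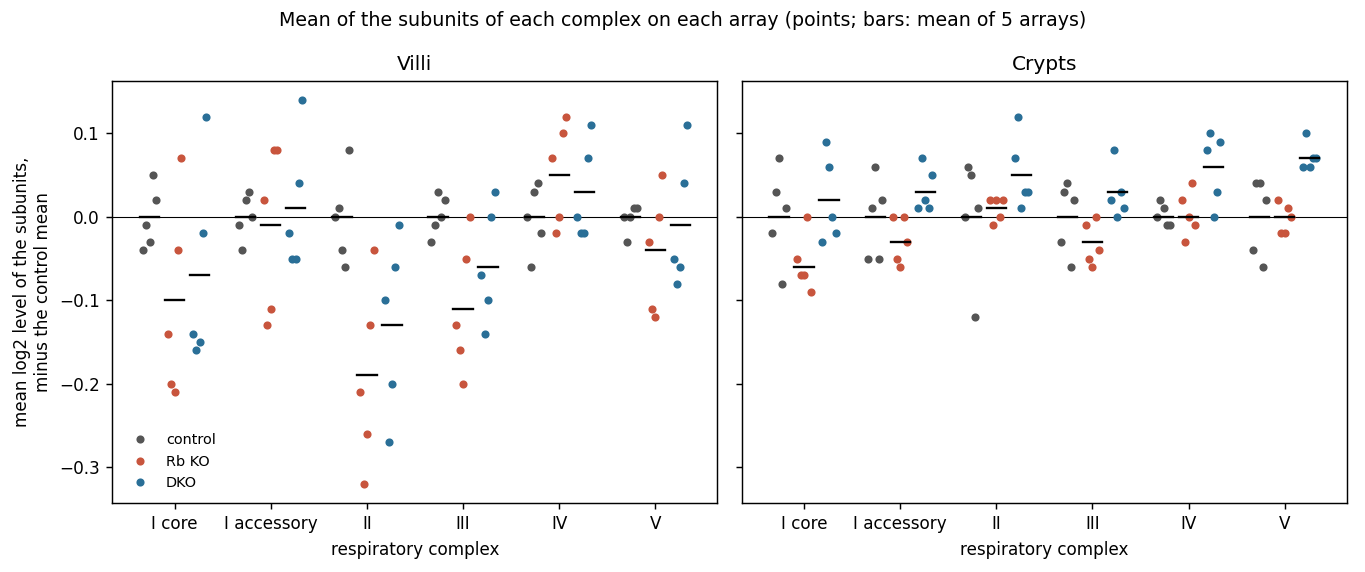
Mean log2 level of the subunits of each complex on each array (points), as the difference from the mean of the 5 control arrays of that tissue, with the mean of 5 arrays (bars). In crypts every DKO array lies above every Rb KO array for complex V, 0.06 to 0.10 against −0.02 to 0.02.

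The assembly factors of complex I, which build the enzyme but are not part of it, had 7 of 8 differences above zero in Rb KO villi and a median of 0.21. Of these only Ndufaf5, an enzyme that modifies the core subunit NDUFS7 in human cells, was called. It read 7.44, 7.15, 7.48, 7.76 and 7.16 in control and 7.94, 7.56, 7.60, 8.21 and 7.96 in Rb KO villi. The groups overlapped, with a difference of 0.46 ± 0.15 (adjusted p = 0.0295), and the call was lost without Rb KO 4 and 5 (adjusted p = 0.198). In DKO villi it was 0.57 ± 0.15 above control (adjusted p = 0.016).

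Cox7a2l encodes a factor that joins complexes III and IV into supercomplexes and resembles a complex IV subunit. Its levels were 11.04, 11.20, 11.10, 11.47 and 11.20 in control villi and 11.01, 10.70, 10.67, 10.73 and 10.77 in Rb KO villi. All Rb KO arrays were below all control arrays, with Rb KO array 1 close to control array 1. Cox7a2l fell by 0.43 (adjusted p = 9.0e-04), and its 3 probe sets gave −0.43, −0.35 and −0.35.

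The tissue-restricted isoforms are known from other organs, and 2 of the 7 tested were called in Rb KO villi. Cox6b2, the testis form of a complex IV subunit, read 7.25, 6.72, 6.67, 6.61 and 5.95 in control and 8.15, 7.64, 8.32, 7.67 and 7.73 in Rb KO villi. The groups were apart and the rise of 1.26 ± 0.24 was the largest among the 88 (adjusted p = 8.8e-04). Cox7a1, the heart and skeletal muscle form of another complex IV subunit, read 10.94, 11.19, 11.20, 11.20 and 10.98 in control and 10.42, 10.37, 10.52, 10.75 and 10.97 in Rb KO villi. It fell by 0.49 (adjusted p = 0.00194), with Rb KO array 5 inside the control range. The call was lost with the Gapdh difference as a covariate (adjusted p = 0.17). Of the smooth muscle markers 0 of 5 and of the skeletal or cardiac muscle markers 0 of 4 were called in that comparison, and the mean levels of these lists ranged from 7.30 to 7.50 and from 6.01 to 6.23 over control and Rb KO villi. The other 5 tested isoforms, Cox4i2 of lung, Cox6a2 and Cox8b of muscle, Cox8c of testis and the hypoxia-linked Ndufa4l2, had differences from −0.17 to 0.13 and none was called.

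The promoters of 6 genes, chosen from those named in these results, are given here. Short motifs of factors linked to the cell cycle, to Myc and to mitochondrial genes are in capitals. The promoter windows span 250 bases before to 50 after the start site, from RefSeq on GRCm38.p6. By gene ID 74 of the 90 genes matched a window there. The motifs searched on both strands were TTTCCCGC, TTTGGCGC, TTTCGCGC and TTTGCCGC (E2F), CACGTG (the E-box of Myc), GCGC and TGCGC with 1 base of any kind between them (NRF1), CCGGAAG (GABPA) and AAGGTCA (ERR), and no matches of different motifs overlapped in the windows shown. A site that reads the same motif on both strands was counted once.
Ndufa8 (chr2:36049289-36049588, minus strand): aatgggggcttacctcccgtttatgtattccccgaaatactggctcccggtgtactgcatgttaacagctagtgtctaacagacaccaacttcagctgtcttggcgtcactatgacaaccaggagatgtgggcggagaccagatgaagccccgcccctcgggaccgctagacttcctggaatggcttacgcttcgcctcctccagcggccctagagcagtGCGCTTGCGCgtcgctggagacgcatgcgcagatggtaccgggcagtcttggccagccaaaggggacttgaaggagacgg
Sdha (chr13:74350191-74350490, minus strand): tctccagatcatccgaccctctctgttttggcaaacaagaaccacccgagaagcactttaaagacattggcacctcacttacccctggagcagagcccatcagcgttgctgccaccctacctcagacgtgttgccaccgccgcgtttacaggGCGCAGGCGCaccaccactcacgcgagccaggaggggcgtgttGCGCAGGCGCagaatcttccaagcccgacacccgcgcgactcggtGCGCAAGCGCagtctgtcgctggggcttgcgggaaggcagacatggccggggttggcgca
Uqcrc1 (chr9:108936398-108936697, plus strand): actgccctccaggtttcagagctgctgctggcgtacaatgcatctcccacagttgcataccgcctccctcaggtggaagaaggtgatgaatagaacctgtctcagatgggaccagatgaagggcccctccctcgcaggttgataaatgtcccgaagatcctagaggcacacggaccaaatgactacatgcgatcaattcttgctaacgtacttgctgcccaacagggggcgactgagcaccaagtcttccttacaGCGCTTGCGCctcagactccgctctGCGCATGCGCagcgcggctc
Cox7a2l (chr17:83514284-83514583, minus strand): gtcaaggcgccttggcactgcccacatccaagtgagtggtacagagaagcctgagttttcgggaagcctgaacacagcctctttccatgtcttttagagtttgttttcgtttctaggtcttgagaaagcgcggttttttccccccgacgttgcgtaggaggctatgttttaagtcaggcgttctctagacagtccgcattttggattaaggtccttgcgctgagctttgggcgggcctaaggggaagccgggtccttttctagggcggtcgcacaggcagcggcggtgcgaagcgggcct
Cox6b2 (chr7:4753045-4753344, minus strand): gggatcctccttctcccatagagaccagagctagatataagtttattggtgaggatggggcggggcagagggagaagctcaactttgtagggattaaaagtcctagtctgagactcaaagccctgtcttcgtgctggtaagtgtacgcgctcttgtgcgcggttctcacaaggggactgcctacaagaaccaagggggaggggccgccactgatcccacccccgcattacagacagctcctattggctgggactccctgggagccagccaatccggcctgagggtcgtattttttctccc
Ndufaf1 (chr2:119662785-119663084, minus strand): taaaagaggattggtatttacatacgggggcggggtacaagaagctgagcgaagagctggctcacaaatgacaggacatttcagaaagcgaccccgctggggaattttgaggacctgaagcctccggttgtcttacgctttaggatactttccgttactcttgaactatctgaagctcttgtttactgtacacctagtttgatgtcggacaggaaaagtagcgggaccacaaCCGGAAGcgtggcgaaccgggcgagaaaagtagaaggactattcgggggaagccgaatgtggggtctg
Ndufa8, which rose, held 1 NRF1 motif, and Sdha and Uqcrc1, which fell, held 3 and 2 of them. Cox7a2l and Cox6b2 held none of the letters searched in this window, and Ndufaf1 held 1 GABPA motif. In windows not shown, Ndufa1, Ndufs7, Uqcrfs1, Uqcr11 and Cox7a1, which also fell in Rb KO villi, held no NRF1 motif. Of genes that rose there, Ndufb11, Cox7c and Cox7a2 held no NRF1 motif and Ndufaf5 held 1. Over 79 windows of 74 members the NRF1 motif was found in 18 (22.8%), against 8.38% of 14742 windows of tested genes and 4.60% of all 32851 windows. The GABPA motif was found in 24.1%, against 15% and 8.86%, and the ERR motif in 10.1%, against 3.61% and 4.72%. The E-box was found in 8.86%, against 9.23% and 7.15%, and the E2F motifs in 2.53%, against 3.48% and 2.26%. A match describes the letters and is no evidence of binding.

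Lists of genes around the respiratory chain gave these shares in Rb KO villi: 8 of 16 electron carrier and coenzyme Q genes, 37.5% of other assembly factors, 55.6% of regulators, 52.9% of citric acid cycle genes and 35.3% of carriers, pores and chaperones were called, beside 30.5% of all genes and 16.7% of the subunits. The difference between these shares was not tested. Among the 18 regulators of mitochondrial gene expression 6 rose and 4 fell, with a median of 0.07. Tfam, which packs and transcribes mitochondrial DNA, rose from 9.31 ± 0.28 to 10.32 ± 0.16 (SD, n = 5; limma adjusted p = 1.3e-05). Polg, the catalytic subunit of the mitochondrial DNA polymerase, rose by 0.83 ± 0.10 (adjusted p = 1.4e-05). To complete the count, chosen after their values were seen, Pprc1 rose by 1.20, Esrrg by 1.05, Tfb1m by 0.66 and Nrf1 by 0.48, while Ppargc1a fell by 0.43, Polg2 by 0.32, Esrra by 0.25 and Gabpa by 0.24. Ppargc1a and Pprc1 are related coactivators of mitochondrial genes that here moved in opposite directions.

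Of 17 citric acid cycle and pyruvate dehydrogenase genes 2 rose and 7 fell in Rb KO villi, with a median of −0.16. Idh2, the mitochondrial NADP-dependent isocitrate dehydrogenase, rose by 1.33 ± 0.19 (adjusted p = 8.5e-05), and Pdha1, a subunit of pyruvate dehydrogenase, fell by 0.49 (adjusted p = 1.2e-04). Of 16 genes of electron carriers and coenzyme Q synthesis 2 rose and 6 fell, Coq9 by 0.47 (adjusted p = 5.5e-05) and Etfdh, which feeds electrons from fatty acid oxidation into ubiquinone, by 0.37 (adjusted p = 0.0011). Of 32 assembly factors outside the Nduf name 4 rose and 8 fell. Atpaf2, an assembly factor of the ATP synthase head, rose by 0.54 ± 0.08 (adjusted p = 7.0e-05) and Sco1, a copper chaperone of complex IV, fell by 0.39 (adjusted p = 0.00185). Of 17 carriers, pores and chaperones 4 rose and 2 fell, with Timm50, a subunit of the import channel, up by 1.08 ± 0.17 (adjusted p = 1.7e-04).

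By the probe set of highest mean, few oxidative phosphorylation genes differed between DKO and Rb KO villi. Of these readings 1 of 88 (1.14%) was called, a higher level, against 7.83% of all genes (5.90% higher, 1.92% lower), and 0 of 72 subunits. In 2 of 88 the groups were fully apart, against 9.10% of all genes. The gene was Cox7a1, at 10.95, 11.09, 10.96, 10.91 and 11.13 in DKO villi, 0.40 ± 0.10 above Rb KO (limma adjusted p = 0.0318). Rb KO array 5, at 10.97, overlapped the DKO arrays, and the call was lost without Rb KO array 1, 2 or 3 or without DKO array 2, 3 or 5. T cell markers rose with it (6 of 9 called, array means of 9.95 to 10.26 in DKO against 9.15 to 9.72 in Rb KO), as did 2 of 4 exocrine pancreas markers, and the part of these cells was not tested. Sdhc stood at 11.69, 11.50, 11.60, 11.85 and 11.80 in DKO villi, between the other genotypes and overlapping both, with a difference of 0.25 from Rb KO that was not called. At an adjusted p under 0.05 the count ran from 1 to 5 under the other settings that kept every array. It was 5 with probe sets averaged and 3 with the probe set of highest variance, in both cases with Uqcr10 and Ndufv1 among them.

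Set against control, DKO villi had 3 genes higher and 1 lower (4.55%, against 17.1% of all genes, 11.3% higher and 5.78% lower), and 4 with groups fully apart, against 14.5% of all genes. The comparison shares its DKO arrays with the one above and its control arrays with that of Rb KO. Cell division genes were higher (9 of 9 called), as were 1 of 9 crypt and 1 of 4 exocrine pancreas markers. Of the crypt markers 7 of 9 differences were positive (median 0.84), and of the exocrine pancreas markers all 4 (median 0.80). The Gapdh difference was −0.108 to −0.0666 in DKO and −0.211 to −0.112 in control villi, without overlap. Their part in the differences was not tested beyond covariates, and with the crypt marker covariate the calls were 2 higher and 4 lower. Ndufa8, at 12.26, 12.24, 12.24, 12.32 and 12.44, was above every control array, with a difference of 0.46 ± 0.08 (limma adjusted p = 6.9e-04). Cox6b2 was 1.12 ± 0.24 higher (adjusted p = 0.00407), although DKO array 1, at 7.14, lay below control array 1. Ndufaf5, given above, was the third. The gene that fell was Ndufa10, an accessory subunit of complex I, by 0.23 (adjusted p = 0.0486); the call was lost in 11 of the 15 fits that left out 1 array.

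In crypts, where dividing cells are present in control too, Rb loss moved 3 of 88 genes (3.41%, against 10.3% of all genes), 1 up and 2 down (7.33% and 2.97% of all genes). In 6 of 88 the groups were fully apart, against 9.44% of all genes. By the probe set of highest mean, differences of all 72 subunits lay between −0.14 and 0.15, with 95% intervals within 0.5 of zero. The 2 other Uqcr10 probe sets, given above, lay far outside this range. Ndufa8 read 12.63, 12.77, 12.80, 12.64 and 12.74 in control and 12.90, 12.83, 12.82, 12.90 and 12.88 in Rb KO crypts. The groups were apart and the rise was 0.15 ± 0.05 (limma adjusted p = 0.0465), a call lost in 14 of the 15 fits that left out 1 array. Cox6b2 read 8.12, 7.85, 7.99, 7.98 and 7.85 in control and 7.50, 7.63, 7.54, 7.64 and 7.50 in Rb KO crypts, a fall of 0.40 (adjusted p = 0.012) with no overlap. Cell division genes rose beside this (7 of 9 called). Of the enterocyte markers 1 of 8 was called higher, and all 8 differences were positive, with a median of 0.23. Of the crypt markers 1 of 9 was called lower, and all 9 differences were negative, with a median of −0.12. Cox7a2l read 12.21, 12.27, 12.32, 12.36 and 12.30 in control and 12.13, 12.23, 12.10, 11.97 and 11.89 in Rb KO crypts and fell by 0.23 (adjusted p = 0.0197), with Rb KO array 2 inside the control range. Crypt markers were lower on Rb KO arrays 4 and 5 (−0.42 and −0.38 from control) than on the other 3 (−0.12 to −0.02); without these arrays 0 of 88 genes were called, with an adjusted p of 0.152 for Cox7a2l and 0.0553 for Cox6b2.

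**Figure D4:**
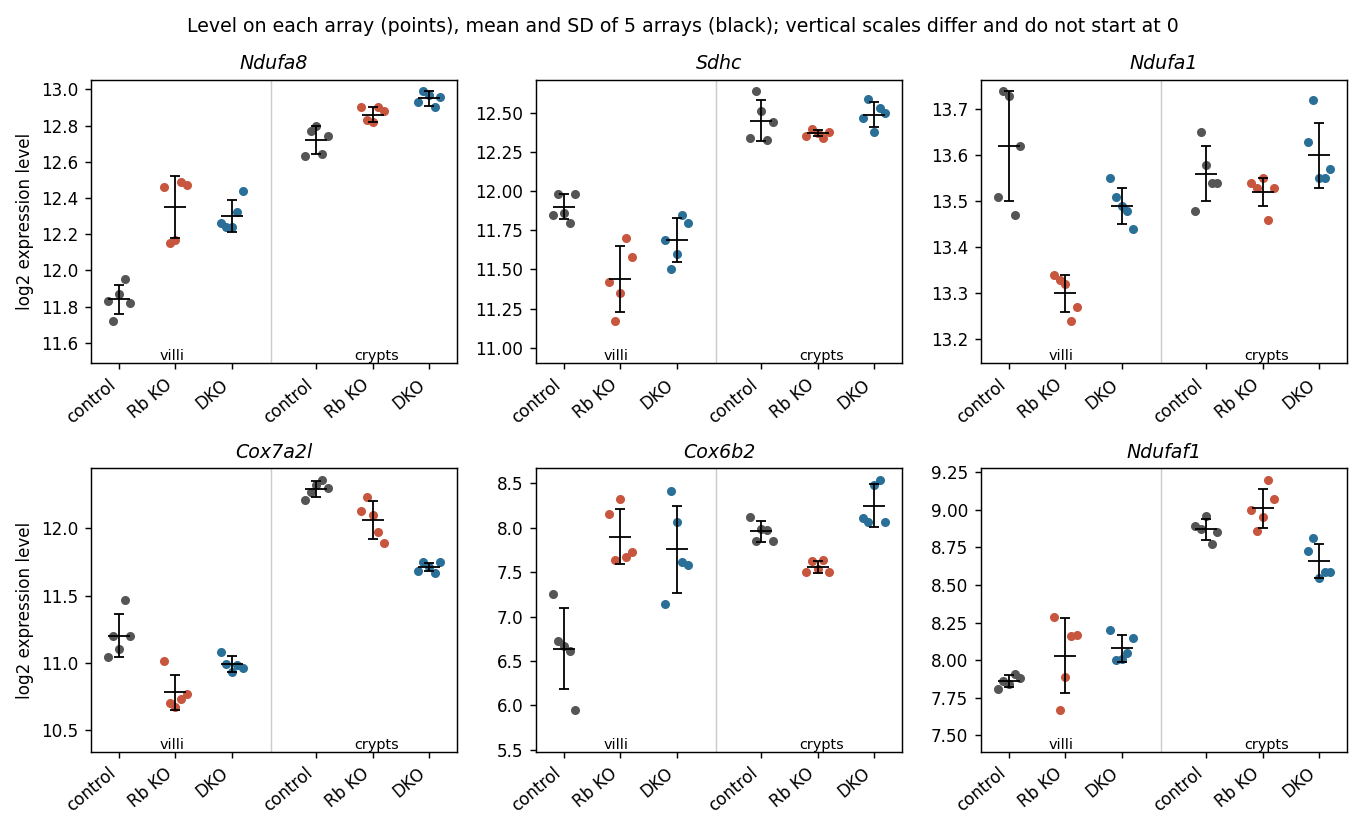
Log2 level on each array (points) with mean and SD of 5 arrays (black) for 6 genes in control, Rb KO and DKO villi and crypts. Ndufa8 is higher in both Rb KO groups than in control, Sdhc and Ndufa1 are lower in Rb KO villi, and Cox7a2l falls stepwise over the crypt genotypes (12.29, 12.06 and 11.71 on average).

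The effect of Rb loss differed between the tissues for 8 of 88 genes (4 with a higher value in crypts and 4 with a lower one, 9.09%, against 13.7% of all genes, 6.98% higher and 6.76% lower), tested as an interaction over the 30 arrays. Villus and crypt samples with the same genotype and number deviated together in 15 of 15 cases and were taken as the same animal; with the animal as a block 10 were called (11.4%, against 20.5%). For Ndufa8 the crypt minus villus value was −0.36 ± 0.09 (limma adjusted p = 0.00606). Cox6b2 rose in villi and fell in crypts (interaction −1.66 ± 0.27, adjusted p = 1.1e-04). Ndufa1 and Sdha, lower in Rb KO villi, had differences of −0.04 and 0.04 in crypts (interaction 0.28 ± 0.07, adjusted p = 0.00882, and 0.28 ± 0.08, adjusted p = 0.0153). To complete the count, chosen after their values were seen, Sdhc, Uqcrfs1, Ndufb11 and Cox7c were called too, with crypt differences of −0.08, 0.01, −0.06 and −0.04. The Cox7c call (limma adjusted p = 0.0498) was lost in 11 of the 15 fits that left out 1 replicate. All 8 had a larger difference in villi than in crypts in size. The count was 4 or 5 without control 2, 3 or 5 or Rb KO 3 or 4.

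**Figure D5:**
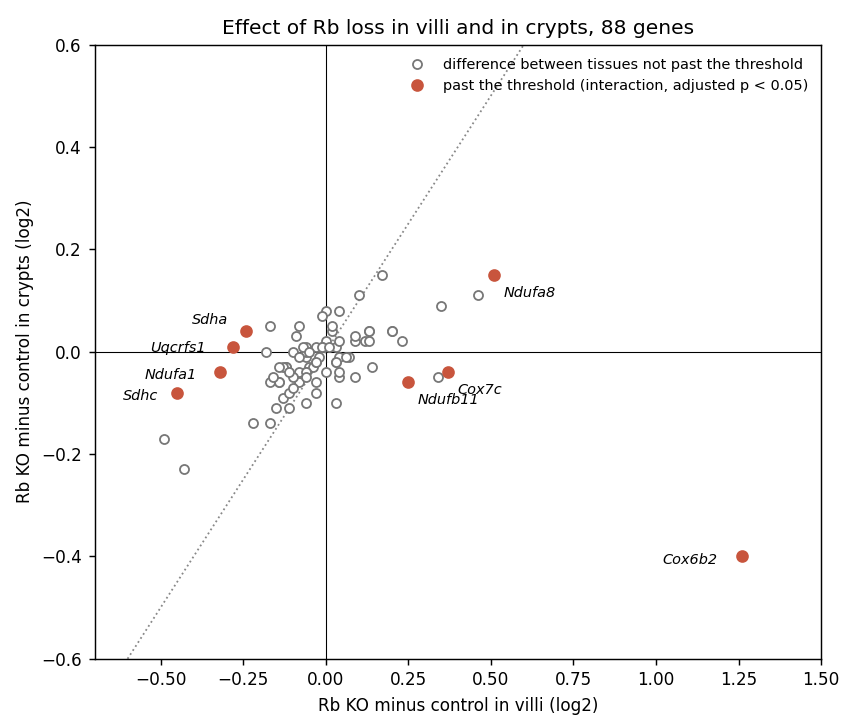
Rb KO minus control in villi (x axis) and in crypts (y axis) for 88 genes, in log2 units on axes of unequal scale; the dotted line marks equal differences. Filled points are the 8 genes whose difference between tissues passed the threshold; Cox6b2 lies at 1.26 in villi and −0.40 in crypts.

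In crypts that had lost Myc as well as Rb, read from the probe set of highest mean, 6 of the 72 subunits rose and none fell. That is 8.33% called, against 12.4% of all genes, and the rises were small. Of the 8 factors that assemble complex I, 1 rose and 2 fell. From Rb KO to DKO 8 of 88 genes rose and 3 fell (12.5%, against 12.4% of all genes, 5.17% higher and 7.22% lower). In 22 of 88 (25.0%) the 5 DKO and 5 Rb KO arrays were fully apart, against 11.7% of all genes. Of the 72 subunits 18 were apart, all 18 higher in DKO, and 59 (81.9%) had a positive difference, against 52.2% of all genes. In these probe sets the size was small, with a median of 0.07 for the subunits, 0.01 for all genes and differences from −0.21 to 0.24. Quantile normalization called 17 genes higher and 3 lower (85.0% higher, against 72.7% as deposited), and centring each array on its median 5 and 3 (62.5%). With the probe set of highest variance the calls were 7 higher and 7 lower, Uqcr10 (3.39) and Ndufv1 (0.95) among the higher ones. Without Rb KO 3 the count was 7, and without Rb KO 4 and 5 it was 7. In the same comparison crypt markers rose (3 of 9 called; array means of 12.41 to 12.78 in DKO and 12.10 to 12.50 in Rb KO), as did 2 of 9 T cell and 1 of 4 exocrine pancreas markers, while 1 of 9 cell division genes fell. The part of these cells in the subunit differences was not tested.

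The subunits that rose belonged to complexes I, III, IV and V. Ndufs4, an accessory subunit of the arm that takes electrons from NADH, whose loss in humans causes Leigh syndrome, read 11.36, 11.26, 11.25, 11.41 and 11.24 in Rb KO and 11.49, 11.59, 11.57, 11.51 and 11.54 in DKO crypts. All DKO arrays were above all Rb KO arrays, with a rise of 0.24 ± 0.05 (limma adjusted p = 0.00384). Uqcrb, a small subunit of complex III next to the ubiquinone site, read 14.32, 14.29, 14.31, 14.37 and 14.42 in Rb KO and 14.62, 14.57, 14.53, 14.55 and 14.45 in DKO crypts. It rose by 0.20 ± 0.04 (adjusted p = 0.00617) without overlap. Its second probe set gave 0.14, and with that one the call was lost (adjusted p = 0.268). Cox8a, of complex IV, rose by 0.16 ± 0.04 (adjusted p = 0.0199), from 14.25 to 14.34 in Rb KO to 14.42 to 14.52 in DKO. The Cox8a call was lost without Rb KO 3 (range of adjusted p over the 15 fits 0.0194 to 0.0551) or without DKO 2. It was also lost with probe sets averaged (adjusted p = 0.166), with centring (adjusted p = 0.0519) and without Rb KO 4 and 5 (adjusted p = 0.0589). In complex V, Atp5e, the epsilon subunit of the head, read 13.11, 13.06, 13.01, 13.01 and 13.05 in Rb KO and 13.21, 13.21, 13.23, 13.25 and 13.27 in DKO crypts. It rose by 0.19 ± 0.04 (adjusted p = 0.00831), and the groups were apart. Atp5g1, a gene of the membrane rotor, and Atp5k, a subunit between paired synthases, completed the 3 of 17 called, with 0.15 and 0.14; 16 of the 17 differences in complex V were positive. Complexes I core and II had 0 of 6 and 0 of 4 called, with differences from 0.05 to 0.13 and from −0.01 to 0.13.

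Of the 8 assembly factors of complex I, 1 rose and 2 fell between Rb KO and DKO crypts, with a median of −0.05. Ndufaf1, which acts with Ecsit and Acad9 on the membrane arm, read 9.00, 8.86, 8.95, 9.20 and 9.07 in Rb KO and 8.73, 8.81, 8.55, 8.59 and 8.59 in DKO crypts. The groups were apart and it fell by 0.36 (adjusted p = 0.00288); adjusting for the score of crypt markers gave −0.23 and an adjusted p of 0.0565. Ndufaf7, a methyltransferase acting on a core subunit, fell (−0.29, adjusted p = 0.00292), with Rb KO arrays at 9.18 to 9.43 and DKO arrays at 8.88 to 9.06, without overlap. Ndufaf3, an early assembly factor, rose by 0.24 ± 0.07 (adjusted p = 0.0294); its groups overlapped, at 10.00 to 10.38 and 10.29 to 10.54, and the call was lost in 6 of the 15 fits that left out 1 array.

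Cox7a2l was lower again in DKO crypts. DKO crypts read 11.68, 11.75, 11.71, 11.67 and 11.75, all below the lowest Rb KO array at 11.89. The difference from Rb KO was −0.35 (adjusted p = 0.00114), and the 3 probe sets gave −0.35, −0.37 and −0.36. In villi its difference between DKO and Rb KO was 0.21, not called, and the tissues differed (interaction −0.56 ± 0.10, adjusted p = 0.00259), the only 1 of 88 called (1.14%, against 3.40% of all genes, 1.11% higher and 2.29% lower; with the animal as a block 5 of 88, 5.68%, against 9.93%). Cox6b2 read 8.11, 8.07, 8.48, 8.54 and 8.06 in DKO crypts, above every Rb KO array, and rose by 0.69 ± 0.09 (adjusted p = 2.3e-04).

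Set against control, DKO crypts had 12 genes higher and 4 lower (18.2%, against 20.2% of all genes, 11.0% higher and 9.19% lower), and 19 with groups fully apart (21.6%, against 13.5%), in a comparison that shares its DKO arrays with the one above. The subunits made up 10 of the 12: Ndufa8 (0.24 ± 0.05, limma adjusted p = 0.00145) and Ndufs5 of complex I, Uqcrb (0.22 ± 0.04, adjusted p = 0.00221) and Uqcrh of complex III, Cox8a, Cox5a and Cox7a2 of complex IV, and Atp5e, Atp5h and Atp5j of complex V. For Cox5a the probe set used gave 0.14, while its other probe sets gave −0.05 and −0.09. The Cox8a call was lost with probe sets averaged (limma adjusted p = 0.0548), and the Uqcrb call with its second probe set (0.16, limma adjusted p = 0.201). Ndufaf3 rose by 0.33 ± 0.07 (adjusted p = 0.00286) and Cox6b2 by 0.29 ± 0.09 (adjusted p = 0.0345); the Cox6b2 call was lost in 6 of the 15 fits that left out 1 array, and with all 30 arrays in one fit (adjusted p = 0.349). The 4 that fell were Cox7a2l, by 0.58 (adjusted p = 6.3e-06), Ndufaf7, by 0.27 (adjusted p = 0.00258), Ndufaf1, by 0.21, and Uqcr11, by 0.16. The Ndufaf1 call was lost in 7 of the 15 such fits and with the replicate number as a block (adjusted p = 0.0759). Beside these, 9 of 9 cell division genes, 3 of 9 T cell markers (array means of 7.41 to 7.79 in DKO against 6.99 to 7.34 in control), 1 crypt and 1 enterocyte marker were higher. Of the enterocyte markers 7 of 8 differences were positive (median 0.22), and of the crypt markers 7 of 9 (median 0.17). After adjusting for the score of crypt markers, 22 genes were called, 16 higher and 6 lower (25.0%, against 22.1% of all genes). Beyond this adjustment, the part of these cells in the differences was not tested. The replicate number of the labels as a block left 10 of the 16 calls in number. The count was 10 without control 2 and 10 without control 4.

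The other genes of the pathway were counted in the same way between Rb KO and DKO crypts; whether they differ from the subunits was not tested. Of all genes tested 12.4% were called (5.17% higher, 7.22% lower). Of the 32 other assembly factors 2 rose and 6 fell (25.0% called), with a median of −0.07. Nubpl, which supplies iron-sulfur clusters to complex I, fell by 0.33 (limma adjusted p = 7.2e-04), and Tmem70, of complex V assembly, by 0.36 (adjusted p = 0.00127). Of the 18 regulators 1 rose and 4 fell (27.8% called), with a median of −0.08. Esrrg, an orphan nuclear receptor, rose from 8.51 ± 0.15 to 9.45 ± 0.07 (SD, n = 5; adjusted p = 2.5e-05), and Twnk, the mitochondrial DNA helicase, fell by 0.38 (adjusted p = 0.00412). Of the 17 citric acid cycle genes 0 were called. Of 16 electron carrier and coenzyme Q genes 1 rose (Etfb, 0.25) and 1 fell (Coq9, −0.18), 12.5% in all. Of 17 carriers, pores and chaperones 1 rose and 3 fell (23.5% called), among them the import receptor gene Tomm20 (−0.33, adjusted p = 0.00292). Tfam, followed here because it was named in villi, rose in Rb KO crypts by 0.19 ± 0.05 (adjusted p = 0.0252) and was lower in DKO than in Rb KO (−0.21, adjusted p = 0.0126).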

How the data were processed

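Total RNA of 30 samples was hybridised to 1-colour arrays after biotin labelling, per the labels' protocols. The authors deposited log2 expression values of 45101 probe sets; how they normalized and summarized them is not given in the sources used here. Gene symbols came from the platform annotation. Each gene took its probe set of highest mean, and 14548 genes whose mean exceeded 5.33, the 30th percentile of all probe sets, were tested with limma 3.58.1 in R 4.3.3 over the 15 arrays of a tissue, with Benjamini-Hochberg adjustment over all of them. Differences between tissues were tested as interactions over the 30 arrays. The fit was tested on simulated data. The number of arrays limits the precision. Named genes are, per comparison, the gene of smallest p in each role and the largest called differences, the isoforms, and the 2 of smallest p in each other list; others complete small counts and were chosen after their values were seen. The genes, lists, rule and alternatives were chosen with earlier results of these data known. Villus and crypt samples of the same genotype and number were taken as the same animal since their deviations from the group means correlated (r from 0.246 to 0.56). Promoter windows came from RefSeq (GRCm38.p6). Figures were drawn with matplotlib 3.10.9.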

Additional observations from a re-analysis of the deposited data

Results flagged for a closer look

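Among 234 groups of 5 arrays examined, 9 held an array far from the other 4, and chance flags about 1 in 20 groups. Single arrays stood apart in Ndufaf5 in DKO villi (8.40, the others 7.75 to 7.92), Cox8a in DKO crypts (14.52, the others 14.42 to 14.44), Cox6a2 in control villi (8.03, the others 7.88 to 7.92) and in control crypts (8.33, the others 7.86 to 7.94), Ndufa1 in Rb KO crypts (13.46, the others 13.53 to 13.55) and Sdha in Rb KO villi (12.87, the others 12.56 to 12.63). Among the means of a complex relative to control, the same was seen for complex III in DKO crypts (0.08, the others 0.00 to 0.03) and for complex V in control villi (−0.03, the others 0.00 to 0.01) and in DKO crypts (0.10, the others 0.06 to 0.07). The Cox8a level and both of these complex means of DKO crypts came from DKO crypt array 2.

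The effect of Rb loss differed between crypts and villi by the interaction test, crypts minus villi, for Cox6b2 (−1.66), Cox7c (−0.41), Ndufa8 (−0.36), Ndufb11 (−0.31), Ndufa1 (0.28), Sdha (0.28), Uqcrfs1 (0.29) and Sdhc (0.37). The effect of Myc loss on top of Rb differed for Cox7a2l (−0.56). The causes were not tested.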

How the results depend on the processing

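Among the oxidative phosphorylation genes named by the rule of smallest p or largest difference, no call changed sign under the alternatives run. Genes named to complete a count, and those of the other lists, were not followed in this way. Uqcr10, not called with the probe set of highest mean, went from −0.05 to 3.50 in DKO against Rb KO villi with that of highest variance. The lean of some counts changed: DKO against control villi went from 3 higher and 1 lower to 2 and 4 with the crypt marker score and 3 and 3 with all 30 arrays, the interaction of Myc loss from 0 and 1 to 3 and 2 with the replicate block (1 and 1 without control 2 or without DKO 5), DKO against Rb KO crypts from 8 and 3 to 7 and 7 with the probe set of highest variance, and Rb KO against control villi from 6 and 10 to 4 and 4 with the Gapdh difference, 7 and 7 without control 4 and 8 and 8 without Rb KO 2. Counts of called genes moved by over 1.5 times as follows. In villi, Rb KO against control (16), they were 7 at an adjusted p under 0.01, 10 with only the groups compared in the fit and 8 with the Gapdh difference as a covariate. In villi, DKO against Rb KO (1), they were 0 at 0.01, 5 with probe sets averaged or with all 30 arrays in one fit, 3 with the probe set of highest variance, with array weights or without Rb KO 4 and 5, 4 with the crypt marker score, and 2 with centring, with only the groups compared, with trend and robust fitting or with sex. Sex was set from the level of Xist on each array. In villi, DKO against control (4), they were 2 at 0.01. In crypts, Rb KO against control (3), they were 0 at 0.01 or without Rb KO 4 and 5, 5 with the 50th percentile as filter, and 1 with only the groups compared, with all 30 arrays or with the crypt marker score. In crypts, DKO against Rb KO (11), they were 7 at 0.01 or without Rb KO 4 and 5, 20 with quantile normalization, 17 with trend and robust fitting and 19 with array weights. In crypts, DKO against control (16), they were 6 at 0.01, 26 with quantile normalization, 27 with trend and robust fitting, 9 with only the groups compared, and 10 with centring, with the replicate block, with the Gapdh difference or without Rb KO 4 and 5. The interactions gave 5 instead of 8 (Rb loss) and 2 instead of 1 (Myc loss) with probe sets averaged, and 5 instead of 1 (Myc loss) with the replicate block, which took villi and crypts of 1 animal together. Causes of these shifts were not tested. Leaving out single arrays gave 10 to 16, 0 to 2, 3 to 6, 2 to 3, 7 to 11 and 10 to 15 calls in the 6 comparisons, in this order, and 4 to 8 and 1 to 3 in the interactions.

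The split of calls moved by over 10 percentage points with the scaling in DKO against Rb KO crypts (72.7% higher as deposited, 85.0% with quantile normalization, 62.5% when centred), in DKO against control villi (3 higher and 0 lower when centred, 3 and 1 as deposited) and in Rb KO against control crypts (0 higher and 3 lower with quantile normalization, 1 and 2 as deposited). The median difference of all genes lay between −0.04 and 0.02 under each scaling. Replicate numbers across genotypes were not taken as pairs: deviations correlated above 0.1 in 8 of 15 pairs of villi and 4 of 15 of crypts, and with the number as a block the counts of the other 5 comparisons stayed within 1.5 times.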
